A study of Mus musculus with 10 samples.

Results

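Fkbp5 and 9 further genes of the corticosteroid response (Nr3c1, Nr3c2, Sgk1, Tsc22d3, Zbtb16, Klf9, Ddit4, Pdk4 and Lcn2) were followed across 10 exon arrays of mouse amygdala. A gene was read from the probe sets that the platform annotation gives to exactly 1 symbol, and 9 of the 10 genes had such probe sets, 130 in all of the 1256831 on the array. The remaining gene, Klf9, a transcription factor induced by corticosteroids, has 11 probe sets on the array, each of which carries a second symbol too, and no level is given for it. The study compared 5 arrays of wild-type C57BL/6 mice with 5 arrays of neuropsin-/- mice, which had been backcrossed to C57BL/6 for 12 generations. All mice were 3 months old, each array held RNA of 3 of the 15 animals of a genotype, taken after perfusion under anaesthesia, and the labels name no stress, no drug and no hour of tissue collection. Neuropsin is a secreted serine protease, the product of Klk8, that cuts the receptor EphB2 in the amygdala and has been linked there to the expression of Fkbp5 under stress. The labels do not give the deleted exons.

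Corticosterone, the stress hormone of mice, enters cells and binds the glucocorticoid receptor (Nr3c1) and the mineralocorticoid receptor (Nr3c2), which are held ready by Hsp90 and its co-chaperones. The receptor with its hormone moves to the nucleus and binds DNA at palindromes made of the arms AGAACA and TGTTCT. Fkbp5 encodes FKBP51, a co-chaperone that lowers the receptor's affinity for the hormone, and is itself induced by the receptor, so that it closes a feedback loop inside the cell. In the amygdala this loop is known for its part in fear and anxiety after stress.

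RefSeq promoter windows (assembly GRCm38.p6, 250 bases before to 50 after a start) were at hand for 8 of the 10 genes, 15 windows in all, with no entry for Nr3c1 and Zbtb16. They were searched on both strands for the whole palindrome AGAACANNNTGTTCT, for its looser core GNACANNNTGTNC, which every whole palindrome also matches, and for a single arm, AGAACA or TGTTCT, which the whole palindrome contains. The whole palindrome stood in 3 of 32851 windows of this length in the table (0.00913%), the core in 156 (0.475%) and an arm in 6233 (19.0%). Among the 15 windows 1 held the whole palindrome, at a start of Sgk1, and 4 held an arm, 3 of Sgk1 and 1 of Tsc22d3. The window of Fkbp5 held none of these motifs. The windows below show examples with and without a match, with motif matches in capitals. They are that of Sgk1 with the palindrome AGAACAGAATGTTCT, which begins 189 bases before the start (chr10:21993640-21993939, plus strand), that of Tsc22d3 with an arm (chrX:140600473-140600772, minus strand) and that of Fkbp5 without a match (chr17:28486100-28486399, minus strand).
Sgk1: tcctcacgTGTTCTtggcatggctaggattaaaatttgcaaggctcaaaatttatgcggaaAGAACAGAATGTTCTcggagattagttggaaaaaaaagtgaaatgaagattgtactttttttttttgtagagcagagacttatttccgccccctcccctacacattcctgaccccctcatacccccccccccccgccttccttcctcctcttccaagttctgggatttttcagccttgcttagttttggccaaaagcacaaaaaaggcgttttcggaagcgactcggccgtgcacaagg
Tsc22d3: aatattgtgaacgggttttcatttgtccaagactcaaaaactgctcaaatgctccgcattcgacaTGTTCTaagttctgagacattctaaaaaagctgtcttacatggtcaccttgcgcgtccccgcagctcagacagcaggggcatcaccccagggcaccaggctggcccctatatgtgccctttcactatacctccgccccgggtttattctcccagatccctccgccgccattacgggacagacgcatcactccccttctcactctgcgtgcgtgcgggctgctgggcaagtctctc
Fkbp5: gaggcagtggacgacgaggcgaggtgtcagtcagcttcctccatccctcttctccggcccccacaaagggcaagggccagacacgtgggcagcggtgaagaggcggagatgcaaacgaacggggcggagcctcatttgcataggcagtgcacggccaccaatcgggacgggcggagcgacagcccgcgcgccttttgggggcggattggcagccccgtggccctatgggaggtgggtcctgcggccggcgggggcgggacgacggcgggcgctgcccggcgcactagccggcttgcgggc
The windows shown were picked from 6 of Sgk1, 3 of Tsc22d3 and 1 of Fkbp5, and 3 of the 6 and 2 of the 3 held no match. With an arm in 4 of 15 windows and in 19.0% of all windows, nothing particular to these genes is read from it. No match says only that these letters are not in this window.

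Values are log2 levels made by the authors with RMA, a method that corrects background, aligns the arrays' distributions and summarises the probes of each probe set, so a step of 1 is a doubling. A probe set was tested when it averaged more than 4.94, the median over all probe sets, and the level of a gene was the mean of its tested probe sets where there were at least 3. Of the 130 probe sets of the 9 genes, 115 passed this filter, between 4 (Lcn2) and 23 (Sgk1) per gene. The array medians lay between 4.95 and 5.03. On the first principal component of all gene levels, which carried 35.5% of the variance, wild-type arrays 4 and 5 stood apart with scores of 20.5 and 23.5. Knockout arrays 4 and 5 came next at 7.45 and 3.14, and arrays 1 to 3 of both genotypes lay at -14.2 to -2.43. Of 12 amygdala markers 11 were measured, with group means of 5.97 to 9.70. Klk8, the targeted gene, gave a different answer by the probe sets used. Over all 9 it averaged 5.17 ± 0.27 in wild type against 5.02 ± 0.29 in knockout arrays (SD, n = 5 each, exact permutation p = 0.413, two-sided). Over the 5 probe sets above the filter, the scale used for the other genes, it was lower in the knockout by a log2 difference of -0.39 (exact permutation p = 0.0476; limma adjusted p = 0.693). Its probe set 4485756, named after its values were seen, lay at 5.48 to 6.07 on wild-type and at 3.56 to 5.38 on knockout arrays, without overlap (limma adjusted p = 0.769), with a knockout mean of 4.67 that is under the filter. Probe set 4310685, at means of 5.19 in wild type and 4.69 in the knockout and named for this reason only, also passed the filter only through wild type. Both it and 4485756 enter the difference of -0.39, so its exact permutation p of 0.0476 is not independent of the filter. Which of the Klk8 probe sets lie in the deleted part is not known here.

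None of the 9 measured genes passed the test between genotypes (limma, Benjamini-Hochberg adjusted p under 0.05 over 16367 genes), against 0.0244% of all genes tested. Fkbp5, Zbtb16 and Lcn2 were the members with the lowest p-values, and all 3 had higher means in the knockout. Their unadjusted p-values were below 0.05, as were those of 6.98% of all genes tested, 2.84% on the higher and 4.14% on the lower side, where no member lay. The groups overlapped in all 9 genes, while 1.55% of all genes had groups that did not. Of the 9 genes 6 were higher in the knockout, as were 49.3% of all genes. The median difference over the 9 genes was 0.07 on the log2 scale, beside -0.0019 over all genes tested. In dissected tissue, fewer cells of a type and less RNA per cell cannot be told apart.

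Fkbp5 was at 7.39, 7.60, 7.56, 7.26 and 7.20 on wild-type arrays 1 to 5 and at 7.44, 7.90, 8.23, 7.997 and 7.62 on knockout arrays 1 to 5. Knockout arrays 2 to 5 lay above every wild-type array, while knockout array 1 lay inside the wild-type range. Wild type averaged 7.40 ± 0.18 and knockout 7.84 ± 0.31 (SD, n = 5 each). Knockout minus wild type was 0.43 (SE 0.14, 95% interval 0.14 to 0.72). This is a 1.35-fold difference, with a limma p of 0.00626 unadjusted and 0.630 adjusted over all genes. The spread of Fkbp5 was itself wide, with a range over the 10 arrays of 1.03 that exceeded that of 97.1% of the genes tested. Without wild-type arrays 4 and 5, which were the lowest for Fkbp5, the difference was 0.32 (limma adjusted p = 0.472), and over the single arrays left out it ran from 0.34 to 0.53.

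Zbtb16 encodes PLZF, a zinc finger transcription factor strongly induced by glucocorticoids in many tissues. Its level was 7.42, 7.52, 7.53, 7.37 and 7.66 on wild-type arrays 1 to 5 and 7.57, 7.88, 8.004, 8.05 and 7.75 on knockout arrays 1 to 5. As for Fkbp5, the only knockout array inside the wild-type range was array 1. Wild type averaged 7.50 ± 0.11 and knockout 7.85 ± 0.19 (SD, n = 5 each). The difference was 0.35 (SE 0.10, 95% interval 0.14 to 0.56; limma adjusted p = 0.567). It was the 89th gene by p among the 16367, and Fkbp5 the 159th. Without wild-type arrays 4 and 5 the difference of Zbtb16 was 0.36.

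Lcn2 encodes lipocalin 2, a secreted iron-carrier binding protein that rises in brain after stress and in inflammation. Its level was 6.01, 5.39, 5.57, 5.79 and 5.78 on wild-type arrays 1 to 5 and 5.84, 6.30, 6.28, 5.83 and 6.97 on knockout arrays 1 to 5. Knockout arrays 2, 3 and 5 lay above all wild-type arrays, and array 5 stood highest. Knockout minus wild type was 0.53 (SE 0.19, 95% interval 0.14 to 0.93; limma adjusted p = 0.693), and it was 0.35 without knockout array 5. The gene level rested on 4 of 9 probe sets. Of these, 4936027, named after its values were seen, had the highest mean, 7.22, and differed by only 0.06 (SE 0.17). It followed the rest of the gene weakly over the arrays (r = 0.16). The others averaged 5.22 to 5.74, nearer the filter, and differed by 0.62 to 0.80. The remaining 5 of the 9 probe sets had means under the filter. Among those 5, probe set 4961480, named after its values were seen, lay at 2.07 to 3.34 on wild-type arrays and at 3.48 to 6.08 on knockout arrays, again highest on array 5, and it did not pass when tested without a filter (limma adjusted p = 0.822). Of 12 measured acute phase and reactive glia genes, the class Lcn2 is often grouped with, 3 were higher and 9 lower, with a median of -0.06 and none called. Among them the complement gene C3 was at -0.21 (SE 0.09), the interleukin receptor gene Il1r1 at 0.19 (SE 0.09) and the cytokine signalling inhibitor Socs3 at -0.29 (SE 0.15).

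**Figure D1:**
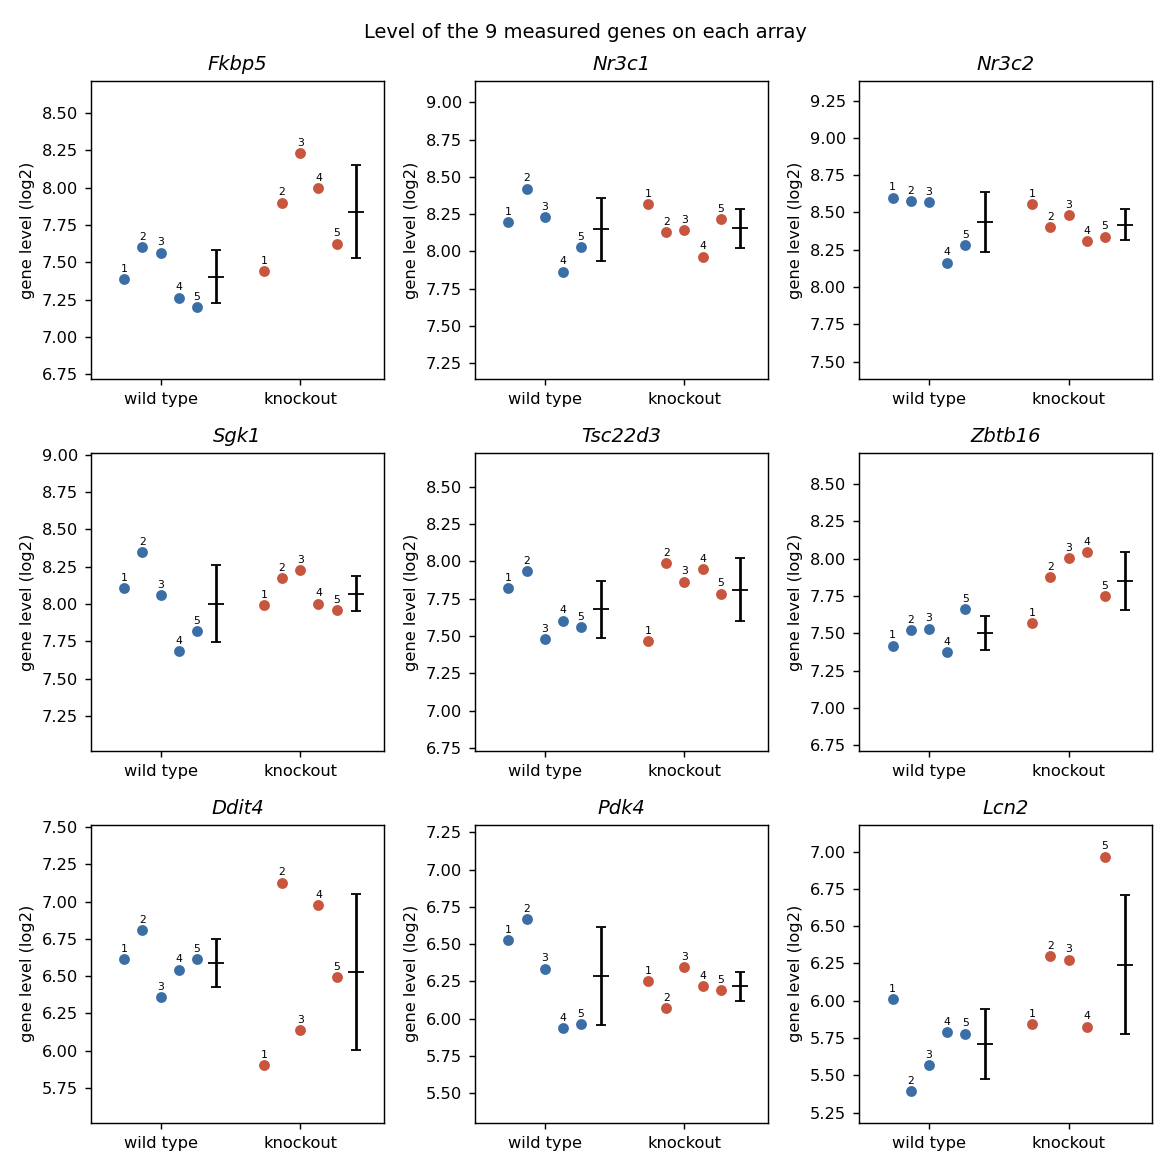
Gene level (log2, y axis) of the 9 measured genes on each array, by genotype (x axis), with the array number above each point; the black marks are the mean and SD of 5 arrays, and every panel spans 2 log2 units. Fkbp5 and Zbtb16 show knockout arrays 2 to 5 above all wild-type arrays, while the receptor genes Nr3c1 and Nr3c2 overlap widely.

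The receptor genes were close to level between the genotypes. Nr3c1 was at 8.20, 8.42, 8.23, 7.86 and 8.03 on wild-type arrays 1 to 5 and at 8.32, 8.13, 8.14, 7.97 and 8.22 on knockout arrays 1 to 5. The groups overlapped, and the lowest array of each genotype was array 4. The difference was 0.01 (SE 0.10, 95% interval -0.21 to 0.23; limma adjusted p = 0.995). Nr3c2 was at 8.60, 8.58, 8.57, 8.16 and 8.28 in wild type and at 8.56, 8.40, 8.48, 8.31 and 8.34 in the knockout. Wild-type arrays 1 to 3 lay together, apart from arrays 4 and 5, and the knockout arrays filled the space between. Here it was -0.02 (SE 0.10, 95% interval -0.23 to 0.19; limma adjusted p = 0.979). The sign of either difference turned when single arrays were left out.

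Sgk1, a kinase that regulates ion channels and is induced through both receptors, differed by 0.07 (SE 0.11, 95% interval -0.18 to 0.31; limma adjusted p = 0.920). It was at 8.10, 8.35, 8.06, 7.68 and 7.82 on wild-type arrays 1 to 5 and at 7.99, 8.17, 8.22, 8.003 and 7.96 on knockout arrays 1 to 5. The wild-type arrays ran wider than the knockout arrays and enclosed them, and the gene level does not tell its starts apart. Tsc22d3 encodes GILZ, a leucine zipper protein that carries part of the anti-inflammatory action of glucocorticoids. It was at 7.82, 7.94, 7.48, 7.60 and 7.56 in wild type and at 7.47, 7.99, 7.86, 7.95 and 7.78 in the knockout. Its difference was 0.13 (SE 0.11, 95% interval -0.11 to 0.37; limma adjusted p = 0.838). Knockout array 1 was the lowest of all 10 arrays, and without it the difference was 0.22.

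Ddit4, also called REDD1, an inhibitor of mTOR signalling induced by stress, and Pdk4, a kinase that restrains pyruvate dehydrogenase, had slightly lower means in the knockout. Ddit4 was at 6.62, 6.81, 6.36, 6.54 and 6.62 in wild type and at 5.91, 7.13, 6.14, 6.98 and 6.50 in the knockout. The knockout arrays spread on both sides of the wild type, with an SD of 0.52 against 0.16, and the difference was -0.06 (SE 0.20, 95% interval -0.48 to 0.36). Pdk4 was at 6.53, 6.67, 6.34, 5.94 and 5.96 in wild type and at 6.25, 6.07, 6.35, 6.22 and 6.19 in the knockout. Here the wild-type arrays spread, with arrays 4 and 5 lowest, and the difference was -0.07 (SE 0.13), or -0.29 without these arrays (limma adjusted p = 0.280).

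At the level of single probe sets, none of the 115 tested probe sets passed (limma, adjusted over 628415 probe sets), against 0.00239% of all probe sets. An unadjusted p under 0.05 was reached by 14 probe sets on the higher side and 2 on the lower, where all probe sets gave 3.33% and 2.64%, or 5.97% together. Of these 14, 6 belonged to Fkbp5, 4 to Zbtb16 and 2 to Lcn2. A few probe sets passed the filter only through the genotype in which they were higher: 4751851 of Lcn2, 1 of these 2, averaged 4.89 in wild type and 5.54 in the knockout, and it also enters the Lcn2 gene level. Another was 5379836 of Pdk4, at 4.88 and 5.28, which is named for this reason only. Fkbp5 was higher in the knockout at 15 of 16 tested probe sets and Zbtb16 at 14 of 15, where 50.3% of all probe sets were higher. Probe sets of a gene share its RNA and are not replicates.

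The leading probe set of Fkbp5, 4363264, was at 7.42, 7.19, 7.27, 7.29 and 6.83 on wild-type arrays 1 to 5 and at 7.91, 8.30, 8.09, 8.03 and 8.17 on knockout arrays 1 to 5. All knockout arrays, array 1 included, lay above all wild-type arrays. The difference was 0.90 (SE 0.16, limma adjusted p = 0.333). Probe set 5438824 of Fkbp5, named after its values were seen, and probe set 4367396 of Zbtb16 also separated the groups, by 0.59 (SE 0.18) and 0.53 (SE 0.15). Groups that do not overlap were found at these 3 of 115 probe sets, all higher, against 1.10% of all probe sets, 0.693% on the higher and 0.409% on the lower side. At probe set 5493065 of Fkbp5 the difference was 0.79 (SE 0.24) and at 4551883 it was 0.62 (SE 0.19), both with overlap.

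On the lower side, probe set 4400115 of Nr3c2 differed by -0.51 (SE 0.21) and did not follow the rest of its gene over the arrays (r = -0.09). Probe set 5539218 of Pdk4 differed by -0.49 (SE 0.22), and it passed the filter only through wild type, with means of 5.40 and 4.92. Relative use of exons, the difference of a probe set from the rest of its gene, passed in none of the 9 genes (limma diffSplice, Simes p, adjusted over all genes), against 1.69% of all genes. The smallest p was that of Nr3c2 (0.0502 unadjusted, adjusted p = 0.459), and Fkbp5 was at 0.940 adjusted.

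**Figure D2:**
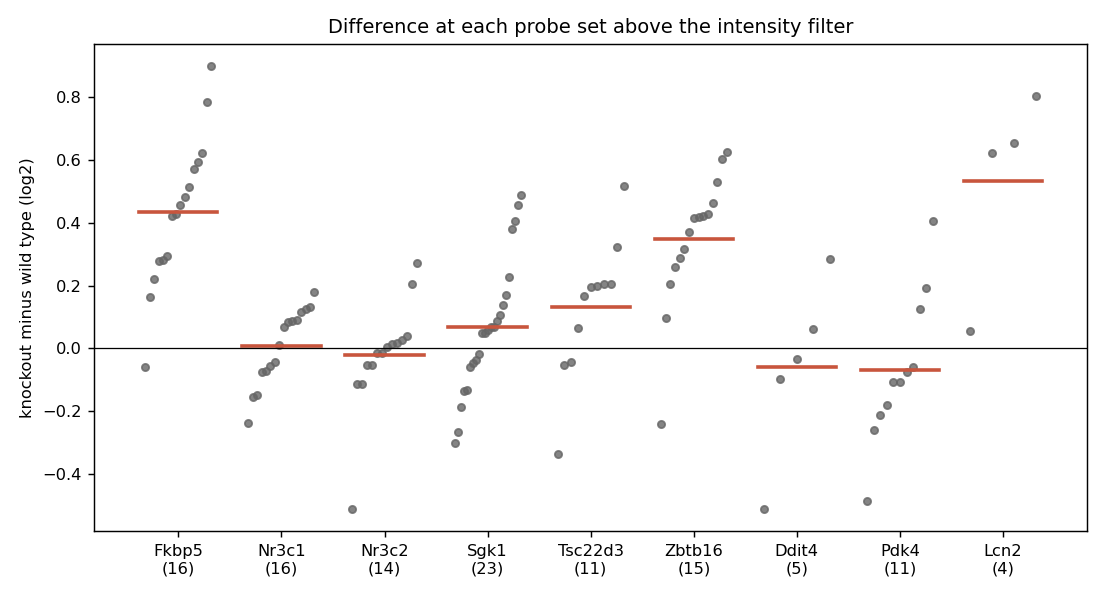
Knockout minus wild type (log2, y axis) at each of the 115 probe sets above the intensity filter, by gene (x axis, number of probe sets in brackets); red lines are gene means. Fkbp5 lies above 0 at 15 of 16 probe sets and Zbtb16 at 14 of 15, while Nr3c1, Nr3c2 and Sgk1 scatter around 0.

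Across the 10 arrays Fkbp5 correlated most with Zbtb16, and the receptor genes with each other and with Pdk4. Pearson r was computed for the 36 pairs of the 9 genes, with two-sided permutation tests and Benjamini-Hochberg adjustment over the 36 pairs. It ran from -0.31 to 0.85 with a median of 0.22, beside a median of 0.09 over all 133931161 pairs of genes tested. The median absolute r was 0.275 for the member pairs and 0.331 for all gene pairs, so a typical member pair was not more strongly correlated. In 3 pairs (8.33%) the adjusted p was under 0.05, and 1.38% of all gene pairs had an absolute r at least as large as the smallest of these, 0.843. The 3 pairs were chosen among members picked with these data known, and r over the arrays holds genotype, tissue mix and array quality together.

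Fkbp5 and Zbtb16 varied together (r = 0.85, permutation p = 0.00241, adjusted p = 0.0289). Their rho was 0.76 (permutation p = 0.0153, adjusted p = 0.136) and did not pass. Both were highest on knockout arrays 3 and 4, whereas wild-type array 5 was the lowest of all for Fkbp5 and the highest wild-type array for Zbtb16. With the genotype means removed r was 0.69 (adjusted permutation p = 0.275). Without knockout arrays 3 and 4, the farthest from the median of Fkbp5, r was 0.66 (adjusted permutation p = 0.445), and without wild-type arrays 4 and 5 it was 0.93. Fkbp5 and Tsc22d3 were at r = 0.66 (adjusted permutation p = 0.171), and Fkbp5 and Sgk1 at 0.59 (adjusted permutation p = 0.237).

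Nr3c1 and Nr3c2, the receptor genes, had r = 0.85 (permutation p = 0.00163, adjusted p = 0.0289). Their rho was 0.79 (permutation p = 0.00931, adjusted p = 0.131). Nr3c2 and Pdk4 had r = 0.84 (permutation p = 0.002, adjusted p = 0.0289) and rho = 0.90 (permutation p = 0.00094, adjusted p = 0.0338). Sgk1 was at r = 0.80 with Pdk4, 0.76 with Nr3c2 and 0.72 with Nr3c1. Sgk1, Nr3c2 and Pdk4 were lowest on wild-type arrays 4 and 5, and Nr3c1 on array 4 of each genotype. Without wild-type arrays 4 and 5, r was 0.70 for Nr3c1 with Nr3c2 and 0.71 for Nr3c2 with Pdk4, both at an adjusted permutation p of 0.299. Fkbp5 was at r = 0.05 with Nr3c1 and 0.14 with Nr3c2, and these turned to -0.62 and -0.56 without wild-type arrays 4 and 5.

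The calls depended on single arrays. No pair passed after removal of the genotype means, and none without the 2 arrays farthest from the median of the first gene. None passed without wild-type array 1 or 4 or knockout array 1 or 4, and 1 without wild-type array 5 or knockout array 5. The pair of Fkbp5 and Zbtb16 passed without wild-type array 2, 3 or 5 and missed the threshold without any other single array, with r between 0.80 and 0.94 throughout. The relation of Nr3c2 and Pdk4 was 0.06 when a gene was the median of its probe sets, and that of Fkbp5 and Zbtb16 was 0.51. Within 1 genotype 5 arrays are too few for a correlation.

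**Figure D3:**
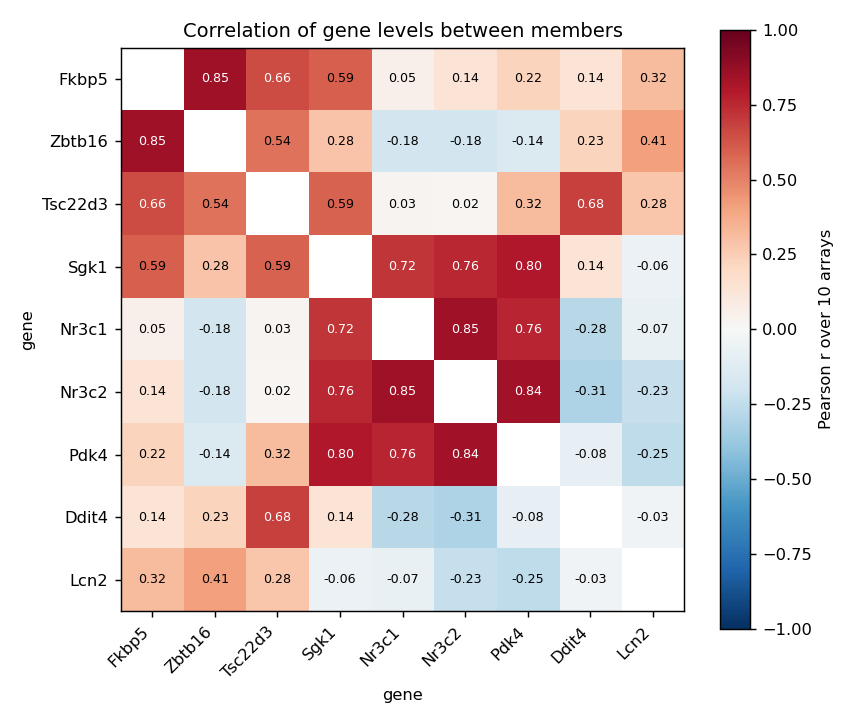
Pearson r (colour and printed value) between the gene levels of each pair of the 9 measured genes over 10 arrays, genes on both axes. Values among Fkbp5, Zbtb16 and Tsc22d3 run from 0.54 to 0.85 and those among Sgk1, Nr3c1, Nr3c2 and Pdk4 from 0.72 to 0.85, while Sgk1 is also at 0.59 with both Fkbp5 and Tsc22d3.

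**Figure D4:**
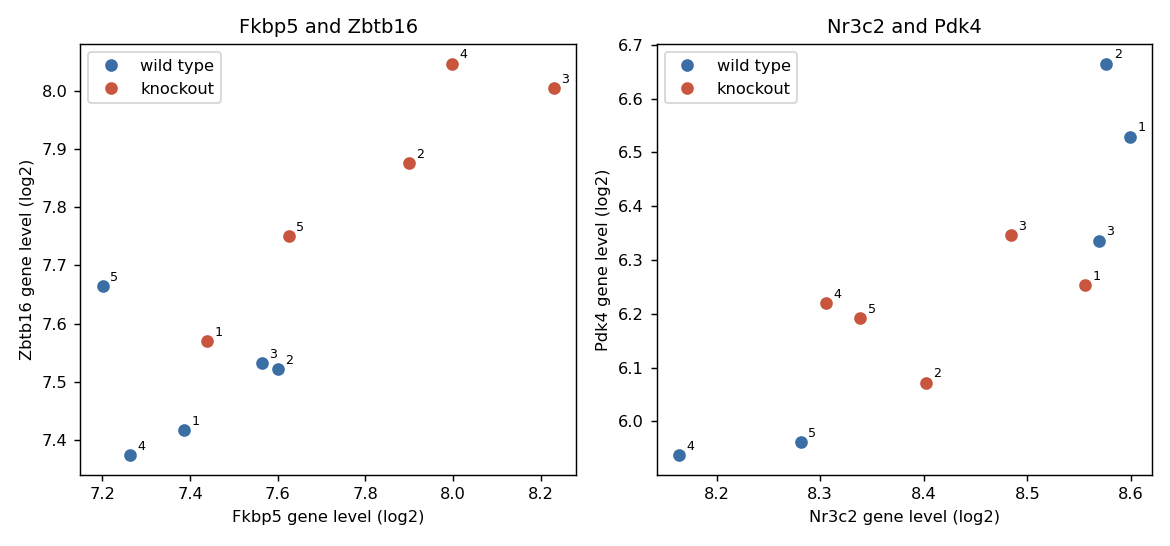
Gene levels (log2) of Zbtb16 against Fkbp5 (left) and of Pdk4 against Nr3c2 (right), 1 point per array with its number, blue for wild type and red for knockout. On the left knockout arrays 2 to 4 lie at the upper end and knockout array 1 among the wild type, and on the right wild-type arrays 4 and 5 lie at the lower end.

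Among the 16366 other genes tested, the pattern of Fkbp5 over the 10 arrays was most like that of Mir124a-1hg, a host gene of the neuronal microRNA miR-124 (r = 0.97). It was followed by Bzw2 (0.95), Net1 (0.95), the thyroid hormone deiodinase Dio2 (0.94), Polr3e (0.94), the corepressor subunit Sin3b (0.93), Arfgap1 (0.92), Nip7 (0.92), Glycam1 (0.91) and the semaphorin receptor Plxna2 (0.90). With the genotype means removed these 10 values were 0.81 to 0.94. Furthest from it were Isg20 (-0.95), Cr2 (-0.94) and Smyd1 (-0.91). The 10 were picked as the highest of 16366, so their r is a description without a test. Zbtb16 stood 34th in this order, and the median r of Fkbp5 with all other genes was 0.13.

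A list of 30 other genes known to be induced by glucocorticoids held 28 measured genes. None was called, 19 were higher and 9 lower in the knockout, and the median difference was 0.10 on the log2 scale. An unadjusted p under 0.05 was reached by 5, all higher, against 2.84% of all genes on that side. Per1, a circadian clock gene, averaged 7.75 ± 0.09 in wild-type and 7.99 ± 0.10 in knockout arrays (SD, n = 5 each), which is 0.23 apart (SE 0.07, limma adjusted p = 0.644). Mfsd2a, a lipid transporter of brain endothelium, differed by 0.30 (SE 0.12) and Mertk, a phagocytic receptor kinase, by 0.23 (SE 0.10). The other 2 of these 5, named after their values were seen, were the glycerol phosphate dehydrogenase gene Gpd1 at 0.21 (SE 0.09) and the NF-kappaB inhibitor gene Nfkbia at 0.22 (SE 0.10). Other well-known targets showed little: the metallothionein genes Mt1 and Mt2 differed by -0.02 (SE 0.10) and 0.04 (SE 0.16), and Glul by -0.04 (SE 0.07), these 3 also named after their values were seen.

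The mean of these 28 genes, centred over the 10 arrays, was 0.01, 0.09, -0.04, -0.20 and -0.10 on wild-type arrays 1 to 5 and -0.11, 0.15, 0.13, 0.09 and -0.02 on knockout arrays 1 to 5. Knockout array 1 was thus low here too, and knockout arrays 2 to 4 were high, as for Fkbp5. Unlike for Fkbp5, wild-type array 2 (0.0915) lay above knockout array 4 (0.0863), and knockout array 5 lay below wild-type arrays 1 and 2. Wild-type arrays 4 and 5, apart from the others on the first principal component, were the lowest wild-type arrays here. Wild-type arrays 1 to 3 lay inside the knockout range. The correlation of single genes with Fkbp5 had a median of 0.53 over these 28 genes, with 26 above 0, beside 0.13 over all genes, of which 9974 of 16366 were above 0. The receptor coregulators, which are not chosen as induced genes, had a median of 0.40 with 11 of 11 above 0. The receptor chaperones had 0.34 with 12 of 13. Without wild-type arrays 4 and 5 most of the 13 chaperones lay below 0, from -0.55 to 0.61. Most of the 28 induced genes stayed above 0 there, from -0.56 to 0.92. Over all 10 arrays the r with Fkbp5 was 0.90 for Mfsd2a, 11th of all genes, 0.79 for Nfkbia and 0.77 for Gpd1.

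**Figure D5:**
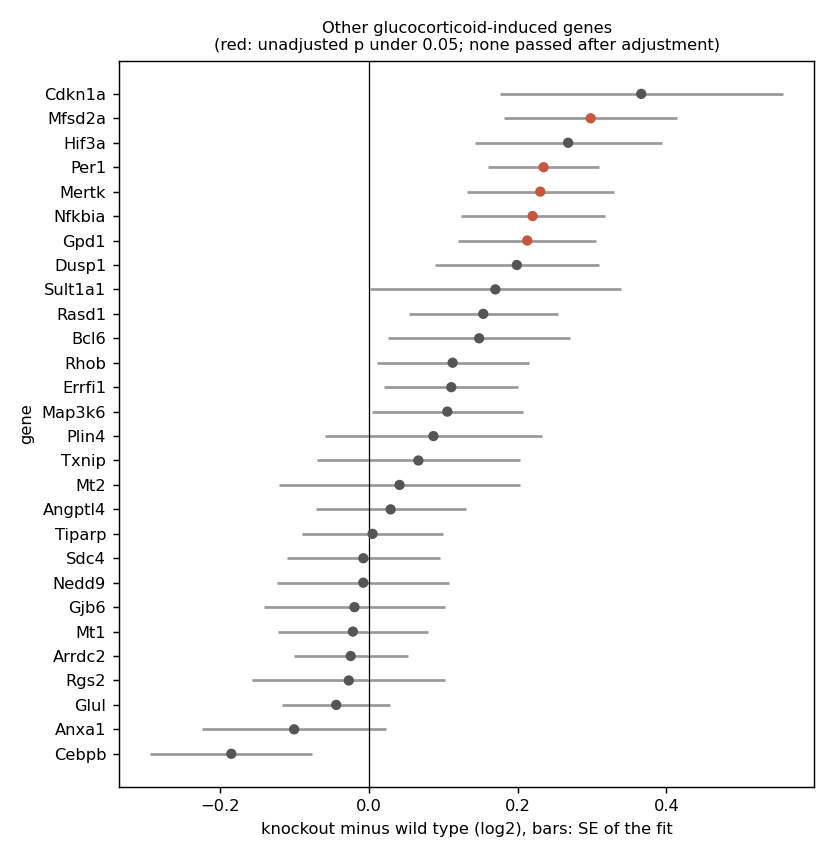
Knockout minus wild type (log2, x axis) for the 28 measured genes of the list of other glucocorticoid-induced genes (y axis), with the SE of the fit as bars and unadjusted p under 0.05 in red. The genes run from Cebpb at -0.19 to Cdkn1a at 0.37, with 19 of 28 above 0 and 5 in red.

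The machinery around the receptor differed little. Of 13 measured receptor chaperones 9 were higher and 4 lower, with a median of 0.05, no call and no unadjusted p under 0.05. Fkbp4, which encodes FKBP52, the co-chaperone that opposes FKBP51 on the receptor, differed by -0.11 (SE 0.08), the inducible Hsp90 gene Hsp90aa1 by 0.10 (SE 0.08) and the p23 gene Ptges3 by 0.11 (SE 0.09). All 11 measured receptor coregulators were higher, by 0.03 to 0.11, where 49.3% of all genes were higher, and none was called. Ncor1, a corepressor, differed by 0.11 (SE 0.08), the acetyltransferase gene Crebbp by 0.09 (SE 0.07) and the methyltransferase gene Carm1 by 0.09 (SE 0.08). This list was lowest on wild-type arrays 4 and 5, at -0.19 and -0.16 of its mean over the arrays, and between -0.01 and 0.08 on the rest.

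Of 11 measured genes of corticosteroid handling 3 were higher and 8 lower, with a median of -0.04 and none called. Star, which brings cholesterol to the start of steroid synthesis, averaged 5.93 ± 0.07 in wild-type and 5.67 ± 0.17 in knockout arrays (SD, n = 5 each), which is -0.26 (SE 0.09, limma adjusted p = 0.693). The reductases Srd5a1 and Akr1c14, which clear steroids to reduced forms, differed by 0.16 (SE 0.11) and 0.22 (SE 0.15).

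Markers of other cells and tissues also had different means in the 2 genotypes, and their part in the differences was not tested. Only 1 marker passed the test, Hbb-b1 of the blood list, and 8297 of 16367 genes tested were lower in the knockout. All 11 measured oligodendrocyte and myelin markers were lower in the knockout, with a median of -0.30, and their mean level was 8.22 to 9.19 on wild-type and 8.24 to 8.68 on knockout arrays. All 10 choroid plexus markers were lower (median -0.28), with mean levels of 6.63 to 7.83 and 6.39 to 7.77. Of 9 measured hypothalamus markers 8 were lower (median -0.26), at 6.39 to 6.86 and 6.02 to 6.21, without overlap. Of the 4 measured blood markers the haemoglobin gene Hbb-b1 differed by -1.81 (SE 0.20, limma adjusted p = 0.00315), without overlap. The other blood markers, Camp, Slc4a1 and Alas2 (Slc4a1 and Alas2 outside the naming rule), lay at -0.24 to -0.09 with overlap and no call. Of 10 endothelial markers 8 were lower (median -0.07), at 6.85 to 7.24 and 6.88 to 7.12. All 10 microglial markers were lower by small amounts (median -0.05), at 7.09 to 7.44 and 7.14 to 7.24, and 7 of 10 astrocyte markers (median -0.03), at 8.53 to 8.83 and 8.61 to 8.71. Of 11 measured amygdala markers 8 were lower (median -0.10), at 7.53 to 7.81 and 7.47 to 7.64, with Dlk1 lower by a log2 difference of -0.25 (SE 0.09) and without overlap. Of 9 neuronal markers 5 were higher (median 0.05), at 9.24 to 9.64 and 9.34 to 9.47, with the glutamate transporter gene Slc17a7 at 0.24 (SE 0.09). Of 8 hippocampal markers 4 were higher (median -0.03), at 6.46 to 6.70 and 6.42 to 6.74, with Spink8 at 0.48 (SE 0.11, limma adjusted p = 0.357) and without overlap. The lowest group mean of these lists, 4.71, was that of the hypothalamus marker Pmch in the knockout, against 6.59 in wild type. Its difference was -1.88 (SE 0.39, limma adjusted p = 0.270), without overlap. Pmch thus passed the filter only through wild type, and it enters the mean levels of the hypothalamus list. Oxt of the same list differed by -0.63 (SE 0.16, limma adjusted p = 0.446), also without overlap. The r of Fkbp5 with single markers had a median of -0.41 for hypothalamus, -0.40 for blood, -0.20 for amygdala and -0.18 for myelin. This median was -0.07 for microglia, -0.05 for endothelium and -0.04 for choroid plexus. It was 0.075 for hippocampus, 0.18 for astrocytes and 0.23 for neurons, beside 0.13 over all genes tested. The 9 measured members lie on chromosomes 2, 6, 8, 9, 10, 17, 18 and X and Klf9 on chromosome 19, so none lies on chromosome 7, which carries Klk8. The called marker Hbb-b1 does lie on chromosome 7, as does Slc17a7. Whether this place bears on their differences was not tested.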

How the data were processed

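Gene expression was measured on exon arrays of amygdala from 5 wild-type and 5 neuropsin-/- pools of 3 animals each. The deposited values are log2 levels per probe set, which the authors obtained with RMA; the submitters' processing notes name Affymetrix Expression Console as the tool. The build behind the annotation was not stated in those notes. RMA aligns the arrays' distributions, so a change shared by most genes cannot be seen. The number of arrays limits the precision, and p-values measure the spread between pools.

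Probe sets with exactly 1 symbol (318760) were named through the platform annotation, with old symbols updated from RefSeq: of 22296 symbols 18006 were current, 4227 updated and 63 kept. Genotypes were compared with limma 3.58.1 in R 4.3.3 (lmFit and eBayes, all 10 arrays, no covariates, two-sided, Benjamini-Hochberg threshold 0.05) on gene levels and probe sets, and with diffSplice for exon usage. Correlations used 100000 resamples in Python 3.11.15. The gene fit was tested on simulated data of 16367 genes, where it recovered 58 of 100 changes of 0.5 and 96 of 100 changes of 1, with 6 false calls. These shares need not hold for the members. The real data gave 4 called genes, and adjustment is stricter where fewer genes change. The SE was 0.14 for Fkbp5 and 0.19 for Lcn2, against a median of 0.09 over all genes.

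The members, lists and tests were chosen with earlier results of these data known. Genes named are the members, Klk8, and the 3 list genes or 2 marker genes of smallest p per list. The 10 most and 3 least Fkbp5-like genes are named too, and up to 3 probe sets per member with an unadjusted p under 0.05. Most marker genes are given as lists only. Alternatives were other normalizations, filters, gene summaries, priors and weights, a replicate block and left-out arrays.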

Additional observations from a re-analysis of the deposited data

Results flagged for a closer look

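In 5 of 90 groups of 5 arrays a single array lay far from the others, where chance alone flags about 1 in 20 (4.5 groups), and none of the 18 groups of the 9 members was among them. C3 was at 5.80 on wild-type array 1, against 6.03 on the nearest wild-type array. The amygdala marker Dlk1 was at 7.67 on wild-type array 1, the nearest being 7.44. The choroid plexus marker Aqp1 was at 6.28 on knockout array 2, the nearest being 5.98. The endothelial marker Tie1 was at 7.23 on knockout array 3, the nearest being 7.06. The hippocampal marker Wfs1 was at 8.73 on knockout array 4, the nearest being 8.90.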

How the results depend on the processing

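No member gene and no member probe set passed under any of the alternatives, and no member passed for exon usage. The difference of Fkbp5 stayed at 0.32 to 0.54 over 21 alternatives (limma adjusted p 0.232 to 0.925), that of Zbtb16 at 0.29 to 0.42 (0.275 to 0.900) and that of Lcn2 at 0.35 to 0.71 over 20 (0.360 to 0.925), since the stricter filter left it no value. The lowest of these values for Fkbp5 and Lcn2 came with the replicate number as a block, which gave 0.232 for Fkbp5 (difference 0.43) and changed no call of a member. The main test did not treat the numbers as pairs. Same-numbered arrays correlated at 0.08 to 0.41 after removal of the group means, all above 0, with number 2 under 0.1. Of the wild-type arrays, 3 of 5 matched their own number best. Whether the numbers mark pairs was not tested. Among all probe sets, 15 passed, 0 with the block, 2 with no filter, 66 with the stricter filter and 102 with a trended and robust prior. Correlations were not run with the block, since only 5 differences remain.

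The sign of small differences turned. Nr3c1 was at -0.0049 with quantile normalization again, -0.13 when wild-type arrays 4 and 5 were dropped, -0.0434 with array weights, -0.0572 with the median over probe sets, -0.0102 with median polish, and -0.0639 to 0.0752 with single arrays left out. Nr3c2 was at 0.0043 with the median, and at -0.0891 to 0.0197 with single arrays left out. Sgk1 was at -0.10 with the median over probe sets, -0.10 when the same arrays were dropped, and -0.0119 to 0.15 with single arrays left out. Ddit4 was at 0.0509 with the stricter filter, 0.0565 with weights, 0.19 with the median, 0.0212 with median polish, and -0.21 to 0.10 with single arrays left out. Pdk4 was at 0.0675 with the median and -0.16 to 0.0253 with single arrays left out. Srd5a1 was at -0.0559 with the stricter filter and -0.0755 with the median, the blood marker Camp at 0.0278 and Fkbp4 at 0.0237 with the median. The causes were not tested.

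Of the 36 pairs, 3 passed. The count was 1 by Spearman rho, 0 with genotype means removed, 1 without wild-type arrays 4 and 5, 0 without the 2 farthest arrays, 7 with arrays centred on their median, 0 with no filter, 1 with the median over probe sets, and 0 to 3 with single arrays left out. The r of Fkbp5 with Nr3c1 was -0.62 and -0.04 (without wild-type arrays 4 and 5, quantile normalization) and -0.25 to 0.24 with single arrays left out. With Nr3c2 it was -0.56 and -0.13 to 0.29, and with Ddit4 -0.026 to 0.57. With Pdk4 it was -0.36 when both arrays were dropped and -0.065 under the stricter filter, and with Lcn2 it was -0.22 with genotype means removed. Over all genes 4 passed, 2 with at least 1 probe set per gene and 2 to 6 with single arrays left out. The hypothalamus marker Pmch, not called in the main test, passed without wild-type array 5 (limma adjusted p = 0.0457) and with array weights (0.0456). It also passed without wild-type arrays 4 and 5 (limma adjusted p = 1.7e-05). The Klk8 difference of -0.15 was -0.39 over the probe sets above the filter (exact permutation p = 0.0476), and -0.25 to -0.04 with single arrays left out. The value above the filter includes probe sets that passed only through wild type.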
